A study of Mus musculus with 8 samples.

Results

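Crip1 and Crip2 are small zinc-binding proteins of the LIM domain family, and their transcripts were followed here through the cells of the mouse colonic lamina propria, the connective tissue under the gut epithelium. They are 2 of the 31053 genes in the tables, matched by symbol and by Ensembl identifier, and both were found in all 8 libraries. They were singled out with earlier results of these libraries known, among them their levels across T cell subsets and other cell types. Known too were lower counts in T cells and other cells of wildtype mice after colitis induced with dextran sulfate sodium (DSS). The levels across classes and the wildtype DSS values are therefore given as a description, with no test. For the mutant mice the fits of DSS against untreated are given with their p-values, and mutant against wildtype was tested. That genotype test uses the same wildtype libraries that led to the choice, so its values are not independent of the choice. The rule of choice names DSS against untreated without a limit to the wildtype, so whether mutant values entered it is not known. The p-values and calls for DSS in the mutant therefore describe the fits, with a call marking an adjusted p under the threshold, and are no independent evidence that the members changed.

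A LIM domain is a double zinc finger that binds other proteins rather than DNA, and LIM proteins are found on actin filaments, at adhesion sites and in the nucleus. Crip1, cysteine-rich intestinal protein, has a single LIM domain and was named for its abundance in the intestine; it is also made by immune cells. Crip2 has a pair of LIM domains and is best known from the heart and blood vessels.

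Mice were C57BL/6, 10 to 12 weeks old, kept free of specific pathogens on a normal diet. Wildtype mice and mice carrying the RORgtS182A substitution in RORgt, the transcription factor that drives Th17 cells (S203AKI in the sample titles; how the names relate is not given in the sources used here), were either left on plain water for 10 days or given 2% DSS, which injures the colonic epithelium, for 7 days and then water for 3 days. The tissue was taken on day 10 in all 4 groups, digested, separated on Percoll and passed over a kit that enriches CD4 T cells. Droplet 3′ libraries with unique molecular identifiers (UMIs) were made from about 10000 cells each. Each group held 2 libraries, which the design text calls independent biological replicates.

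In the mouse genome (GRCm38, which is mm10) the members are neighbours on the same strand. Crip2 (ENSMUSG00000006356) lies at chr12:113140236-113145506 and Crip1 (ENSMUSG00000006360) at chr12:113146316-113153879, both on the plus strand, with 809 bases and 0 annotated genes between them. No other annotated gene overlaps either of them, and each has 6 annotated transcripts, 3 of them protein coding. The RefSeq start of Crip1 is further along, which widens the gap to 6505 bases. Their start regions are shown because both transcripts were lower together in the DSS libraries. Each run holds 250 bases before to 50 bases after a RefSeq start (GRCm38.p6, plus strand, 5′ to 3′), with the GC box letters GGGCGG, searched on both strands, in capitals (CCGCCC where the match is on the minus strand).
Crip1, chr12:113151762-113152061: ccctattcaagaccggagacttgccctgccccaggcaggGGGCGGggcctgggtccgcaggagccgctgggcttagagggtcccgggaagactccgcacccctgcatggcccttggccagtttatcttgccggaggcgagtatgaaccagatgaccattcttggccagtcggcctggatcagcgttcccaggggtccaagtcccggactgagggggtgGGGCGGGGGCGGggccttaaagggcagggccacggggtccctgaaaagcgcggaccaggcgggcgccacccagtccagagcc
Crip2, chr12:113139986-113140285: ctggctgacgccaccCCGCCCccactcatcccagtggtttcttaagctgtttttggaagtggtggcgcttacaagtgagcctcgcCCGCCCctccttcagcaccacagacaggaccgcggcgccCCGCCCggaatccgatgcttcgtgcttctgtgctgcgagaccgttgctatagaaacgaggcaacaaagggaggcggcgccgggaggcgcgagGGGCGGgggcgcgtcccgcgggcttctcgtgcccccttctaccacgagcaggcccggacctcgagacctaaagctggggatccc

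Crip1 had 3 GC box matches in this window and Crip2 had 4, the last pair in Crip1 lying back to back. The second RefSeq start of Crip2 had 5. A GC box match was present in 35.7% of 32851 promoters of this length, so the letters are common. G and C made up 68.3% of the Crip1 run and 66.3% of the Crip2 run, against a median of 52.7% over all promoters, and the runs held 18 and 29 CpG sites against a median of 7. The AP-1 letters TGANTCA had 0 matches in all 3 windows and were in 7.81% of promoters. CACCC was matched 3 times in Crip1 and 1 time in the Crip2 window shown (57.5% of promoters).

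The 8 libraries held 100673 barcodes and between 34497509 and 46960005 UMIs each. Levels are given as CPM, the UMIs of a gene summed over the cells of a class in a library and scaled by the total UMIs of those cells. CD4 T cells, taken from the authors' cell list, numbered 20719 (1774 to 3749 per library, 6145923 to 14930515 UMIs), and their T cell genes were present in every library (Cd3e 289 to 393 CPM, Cd4 444 to 622 CPM) while Cd8a stood at 0.268 to 1.66 CPM. Among the 99487 distinct barcode sequences, 1176 occurred in more than 1 library, 55 of them within the CD4 T cells. A UMI of at least 1 of 7 markers of other cell types was found in 25.4 to 79.6% of CD4 T cells (mean 42.6% over untreated and 57.0% over DSS libraries), with Jchain of plasma cells at 70.7 to 640 CPM, C1qa of macrophages at 10.6 to 65.3 and Cdh5 of endothelium at 0 to 0.454. The summed heat-shock genes stood apart in the mutant untreated libraries, at 11114 and 10459.5 CPM, against 2914 and 5197 in the wildtype untreated, 4124 and 2942 in the wildtype DSS and 3253 and 3568 in the mutant DSS libraries. The part of these markers in the results was not tested, except for the fits without such cells given below. Animal numbers in the titles run in separate series for DSS and untreated mice, so treatment and any cohort cannot be told apart.

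In untreated colon, Crip1 was a transcript of effector T cells and mature dendritic cells more than of resting lymphocytes. Averaged over the 4 untreated libraries, the highest class was the mature dendritic cell-like cluster (Ccl17, Ccl22), at 3174 ± 229 CPM (SD, n = 4). Conventional dendritic cells were the next best marker list for that cluster, whose top genes also hold Flt3, Cd209a and Wdfy4. Th1-like cells followed at 2591 ± 217 CPM. Their top genes hold the Th1 markers Ccl5, Il12rb2, Nkg7 and Tbx21 and also the cytotoxic genes Gzmk, Gzma, Fasl and Ctsw, and CD8 T cells were the next best marker list, so the name rests on the Th1 marker list alone. These were the only steps in the order of 28 classes where neighbours differed by more than both of their SDs. A broad middle group could not be ordered beyond its spread, among them a cluster led by Retnla and Chil3 (2011 ± 317), an unnamed T cell cluster led by Trat1 and Il7r (2011 ± 295), proliferating T cells (1992 ± 446), glia-like cells (1884 ± 267) and Th17-like cells (1878 ± 334). Treg-like cells, the Foxp3 regulatory subset, stood at 1550 ± 214 CPM.

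Resting and Tfh-like lymphocytes were at the low end for Crip1. Naive- or central memory-like T cells, whose leading genes include Lef1, had 568 ± 64.4 CPM. Tfh-like cells, named from the marker list of helper cells of B cell follicles, had 435 ± 165 CPM. Their top genes begin with the haemoglobin genes Hbb-bs and Hba-a1, and Cxcr5 is the only Tfh marker among them. Naive or central memory T cells were their next best marker list. B cell-like cells held 651 ± 72.9 CPM and macrophage-like cells 872 ± 161. Among T cell subsets alone, the gap below the cluster led by Hspb1 (1450 ± 246 CPM) to the naive- or central memory-like cells was wider than both SDs. Stromal cells lay between, with fibroblast-like clusters from 668 ± 166 (led by Sox6) to 1308 ± 221 CPM (led by Pcolce2 and Ptx3) and blood endothelial-like cells at 1194 ± 155. Neutrophil-like cells, a small class of 189 cells, averaged 416 ± 534 CPM, from 41.1 to 1208 in single untreated libraries.

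Crip2 was mainly a transcript of stromal, endothelial and glial cells. Its order over the 4 untreated libraries was led by lymphatic endothelial-like cells (530 ± 124 CPM), glia-like cells (454 ± 58.0), a cluster led by Vip and Hand1 (397 ± 376) and blood endothelial-like cells (393 ± 72.5). Neighbours among these 4 did not differ beyond their spread, and the step down to smooth muscle or pericyte-like cells (278 ± 99.4) was wider than both SDs. Fibroblast-like clusters came next: 183 ± 28.7 CPM in the one led by Pcolce2 and Ptx3, 157 ± 28.8 in the one led by Cfd, 102 ± 17.8 in the one led by Sox6 and 74.0 ± 9.88 in the one led by Sfrp2. Below the first pair each of these steps was wider than both SDs. Blood endothelial-like cells had 288 and 402 CPM in the wildtype untreated libraries, 430 and 450 in the mutant untreated, 347 and 300 in the wildtype DSS and 385 and 355 in the mutant DSS libraries. The treated and untreated values of that class overlapped in the wildtype and did not overlap in the mutant.

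T cells were low in Crip2, and the T cell subsets kept a partial order. Th1-like cells were the highest subset, at 38.7 ± 4.55 CPM over the untreated libraries, above proliferating T cells at 27.9 ± 7.10 by more than both SDs. The Trat1 cluster (26.4 ± 6.20), Treg-like cells (25.1 ± 9.13) and Th17-like cells (16.2 ± 4.34) followed with overlapping spreads. Tfh-like cells had 8.28 ± 4.72 CPM, macrophage-like cells 8.47 ± 1.84 and B cell-like cells 8.08 ± 2.57. In neutrophil-like cells Crip2 had no UMI in any of the 4 untreated libraries, where 3 counts, the limit a count of 0 allows, would be 121 to 269 CPM in so few cells, so a level there was not detectable at this depth.

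**Figure D1:**
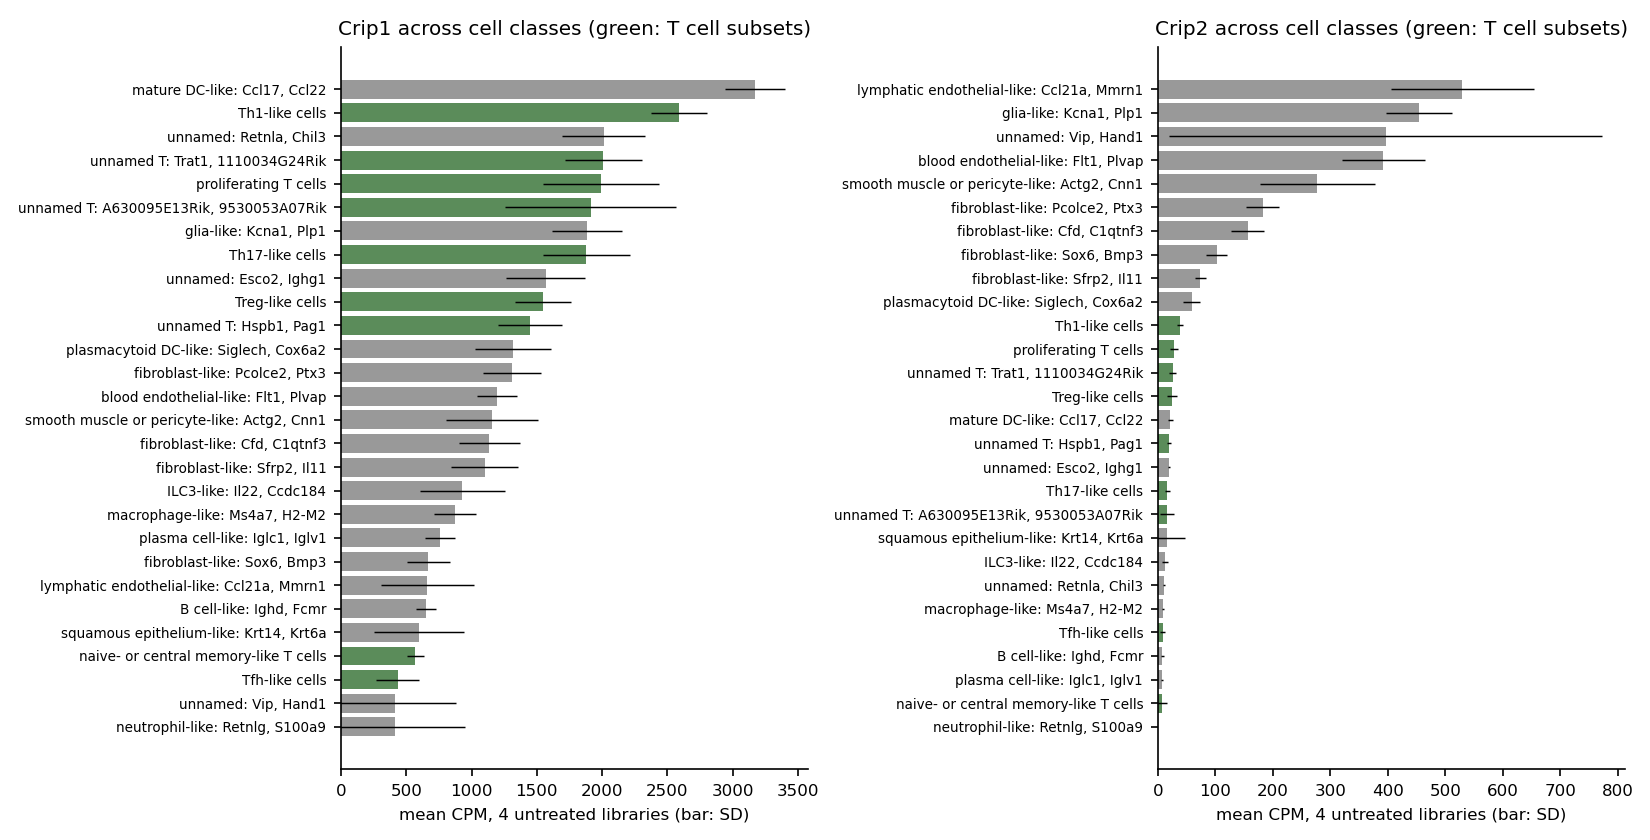
Mean level in CPM of Crip1 (left) and Crip2 (right) in 28 cell classes over the 4 untreated libraries, with classes in order of level, lines showing the SD and T cell subsets in green. Crip1 is led by mature dendritic cell-like cells at 3174 CPM and Th1-like cells at 2591 CPM, and Crip2 by lymphatic endothelial-like cells at 530 CPM.

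**Figure D2:**
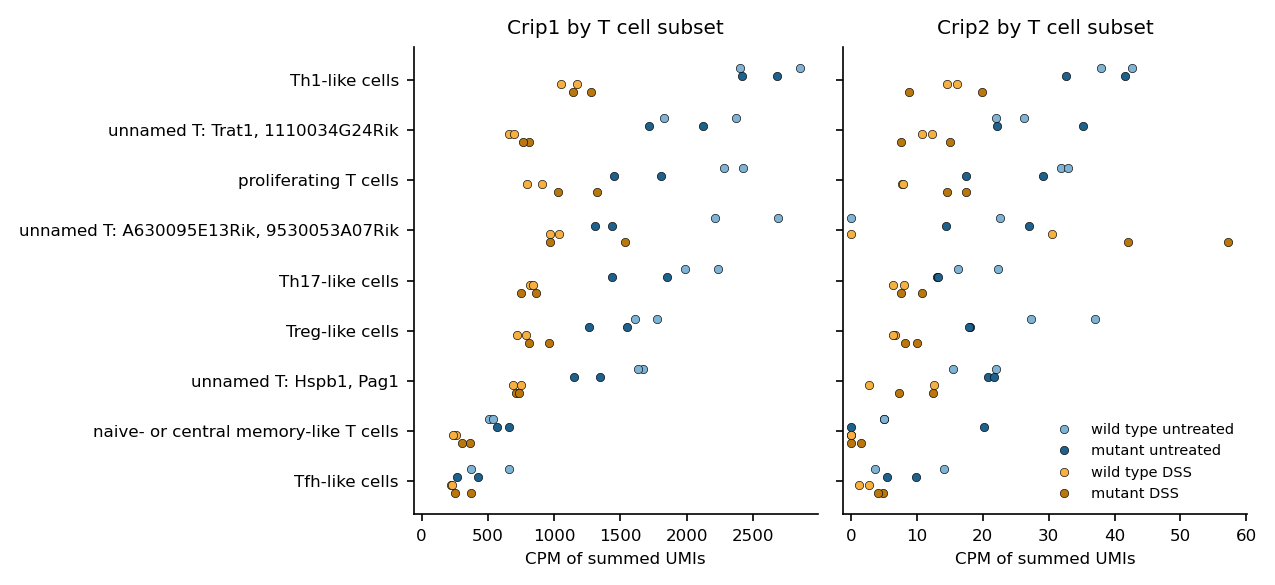
Level in CPM of Crip1 (left) and Crip2 (right) in each T cell subset, 1 point per library, with the 4 groups in separate colours. In Th1-like cells all 4 untreated libraries lie between 2406 and 2856 CPM of Crip1 and all 4 DSS libraries between 1053 and 1279 CPM.

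In the CD4 T cells as a whole, both transcripts were lower in every DSS library than in every untreated library, in the wildtype and in the mutant alike. The same held for 8.28% of the 10671 genes fitted in the mutant. Crip1 stood at 1861 and 1982 CPM in the wildtype untreated libraries, 1559 and 1194 in the mutant untreated, 695 and 765 in the wildtype DSS and 816 and 943 in the mutant DSS libraries. The lowest untreated library was a mutant one, and it was still above the highest DSS library, which was also a mutant one. Crip2 stood at 24.8 and 27.5 CPM in the wildtype untreated libraries, 20 and 18.8 in the mutant untreated, 8.15 and 7.61 in the wildtype DSS and 10.5 and 12.1 in the mutant DSS libraries, on 55 to 180 UMIs per library. For Crip2 too the untreated and DSS values did not overlap.

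In the wildtype, whose earlier results led to the choice, Crip1 averaged 1921 ± 85.2 CPM untreated and 730 ± 49.2 after DSS (SD, n = 2 each), a log2 fold change of -1.46 ± 0.14 (SE). Crip2 averaged 26.2 ± 1.85 and 7.88 ± 0.384 CPM, a log2 fold change of -1.79 ± 0.16. Both untreated libraries lay above both DSS libraries for 19.7% of the 11055 genes fitted (2177 genes), and nothing is read from that share for genes chosen on this contrast.

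In the mutant Crip1 averaged 1377 ± 258 CPM untreated and 879 ± 90.2 after DSS (SD, n = 2 each). The log2 fold change was -0.73 ± 0.16 (SE) and missed the threshold of 0.05 (edgeR quasi-likelihood test, Benjamini-Hochberg adjusted p = 0.0677). Crip2 averaged 19.4 ± 0.884 and 11.3 ± 1.13 CPM, a log2 fold change of -0.85 ± 0.16 that also missed it (edgeR adjusted p = 0.0597). In this contrast 0.722% of 10671 genes were called lower (77 genes), and 21.9% had both DSS libraries below both untreated ones (2333 genes), so the separation of the libraries alone is common. Over the 23 subsets and classes tested below, 15.4 to 30.5% of genes were separated in this way in the mutant and 2.98 to 13.4% had all 4 DSS libraries below all 4 untreated ones, and a separation named for a member is to be read against these shares. With all libraries kept, Crip1 passed with DESeq2 (0.00103), and both members passed with no filter on low counts (0.00680 and 0.0192) and with all 8 libraries in 1 edgeR fit (0.0292 and 0.0285). The value also went under the threshold without mutant DSS library 1 for Crip1 (-0.62, edgeR adjusted p = 0.0157) and Crip2 (-0.76, 0.0278), and without mutant DSS library 2 (-0.82, 0.00740, and -0.96, 0.0262). Such a fit, here and in the classes below, leaves 1 library in an arm and takes the spread from the other arm alone, so the lone library is assumed to vary like the other group, and a call gained in this way is no sign of a firmer change. Over all alternatives run the adjusted p ranged from 0.00103 to 0.304 for Crip1 and from 0.0192 to 0.297 for Crip2. Leaving out cells with a UMI of another type's marker gave -0.74 for Crip1 (edgeR adjusted p = 0.0651). The heat-shock sum moved with this contrast, from 11114 and 10459.5 CPM in the mutant untreated libraries to 3253 and 3568 after DSS. Without the T cell cluster with Svs5 and the heat-shock gene Hspa1a among its top genes, Crip1 was at -0.72 (edgeR adjusted p = 0.0734) and Crip2 at -0.87 (0.0631), and the part of the heat-shock genes in the other cells was not tested.

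**Figure D3:**
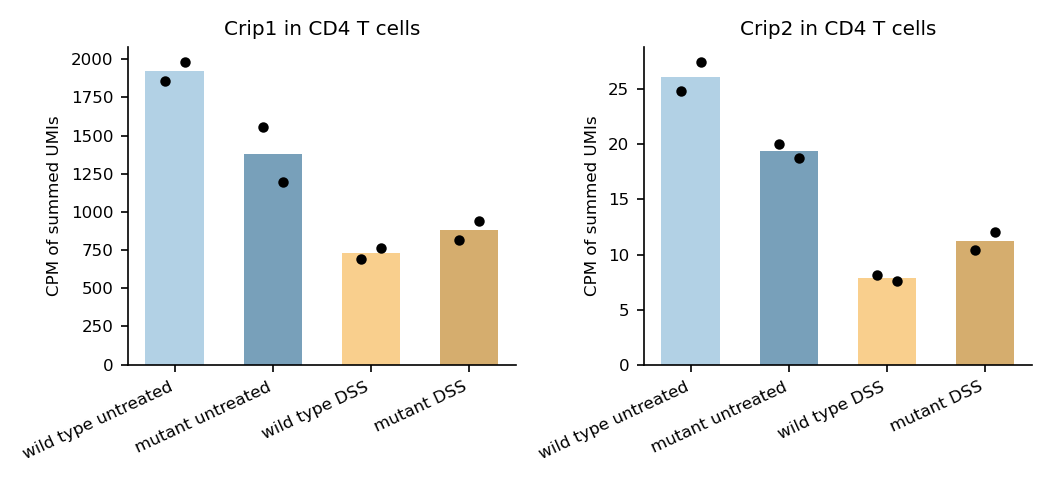
Level in CPM of Crip1 (left) and Crip2 (right) in CD4 T cells, with 1 point per library and bars at the mean of each group of 2 libraries. The 4 DSS libraries lie between 695 and 943 CPM of Crip1, below the 4 untreated libraries at 1194 to 1982 CPM. The same separation is seen for Crip2 and for 8.28% of genes.

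Within T cell subsets, Crip1 was called lower after DSS in 6 of 9 subsets of the mutant and higher in 0. Such calls describe the fits and are no independent evidence of a change. The fitted change was below 0 in all 9, from -1.38 to -0.15 on the log2 scale. The 6 were the Th1-like, Th17-like, Treg-like and naive- or central memory-like cells and the unnamed clusters led by Trat1 and by Hspb1. The share of all genes called lower in the same fits was 1.79% in Th1-like, 1.86% in Th17-like, 1.71% in Treg-like and 1.48% in naive- or central memory-like cells, and 1.35% and 0.538% in the Trat1 and Hspb1 clusters. The count fell without either mutant untreated library or mutant DSS library 1, and rose without mutant DSS library 2. The number of all genes called in mutant CD4 T cells, given at the end, changed too, but not always in the same direction. Shares of all genes by subset in these fits are not given, so a changed count is no result about Crip1.

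Th1-like cells, the subset with the highest Crip1, had 2406 and 2856 CPM in the wildtype untreated libraries, 2679 and 2421 in the mutant untreated, 1053 and 1177 in the wildtype DSS and 1279 and 1142 in the mutant DSS libraries. The 4 treated libraries were all below the 4 untreated ones, as for 6.87% of genes in these cells. In the mutant the change was -1.14 ± 0.16 (log2, SE; edgeR adjusted p = 0.00147) and was not called without mutant untreated library 1 (adjusted p = 0.158, the highest of the alternatives, from 2.36e-12). The wildtype difference was -1.29 ± 0.15.

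Th17-like cells, the Il17a and Il17f producers that depend on RORgt, had 1984 and 2238 CPM of Crip1 in the wildtype untreated libraries, 1852 and 1439 in the mutant untreated, 815 and 840 in the wildtype DSS and 860 and 748 in the mutant DSS libraries. No treated library reached the lowest untreated one, as for 5.88% of genes in these cells. The mutant change of -1.06 ± 0.16 (log2, SE; edgeR adjusted p = 0.00235) passed the threshold under all 12 alternatives run, with adjusted p from 2.01e-07 to 0.0293. The wildtype difference was -1.40 ± 0.15.

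Treg-like cells had 1613 and 1774 CPM of Crip1 in the wildtype untreated libraries, 1548 and 1263 in the mutant untreated, 722 and 787 in the wildtype DSS and 813 and 960 in the mutant DSS libraries. The groups separated by treatment here as well, and the gap was narrower in the mutant, from 1263 down to 960, than in the wildtype, from 1613 down to 787. The mutant change was -0.68 ± 0.15 (log2, SE; edgeR adjusted p = 0.0233) beside a wildtype difference of -1.21 ± 0.15. The call was lost without mutant untreated library 1 (-0.52, adjusted p = 0.203) and when all barcodes with a Cd4 UMI were used in place of the authors' cell list (-0.72, adjusted p = 0.0524), with 2.34e-05 as the lowest value among the alternatives.

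The Treg-like cells came from a pair of clusters that differ in their leading genes. In the cluster led by Il1rl1 (the ST2 receptor of tissue-repair Tregs) and Klrg1, mutant libraries had 1895 and 1478 CPM of Crip1 untreated and 900 and 881 after DSS. That change was -0.94 ± 0.17 (log2, SE; edgeR adjusted p = 0.0361), not called without mutant untreated library 1 (0.253, the highest of the alternatives, from 3.74e-06) or with scaling by library size alone (0.0547). In the cluster led by Mmp9 and Il10 they had 1390 and 1165 CPM untreated and 767 and 999 after DSS. That change was -0.54 ± 0.16 and was not called (edgeR adjusted p = 0.0886), except with no filter on low counts (0.0302) and without mutant DSS library 2 (0.00180); the highest alternative was 0.486. Whether the clusters differ was not tested.

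The cluster led by Trat1 and Il7r gave the lowest fitted Crip1 change of the T cell subsets in the mutant. Its libraries had 1828 and 2371 CPM in the wildtype untreated, 2124 and 1719 in the mutant untreated, 659 and 700 in the wildtype DSS and 807 and 764 in the mutant DSS group. The DSS libraries stayed under every untreated library. Crip1 changed there by -1.38 ± 0.19 in the mutant (log2, SE; edgeR adjusted p = 0.00123), with an adjusted p of at most 0.00216 under the alternatives run, and the wildtype difference was -1.66. In the Hspb1 cluster the mutant libraries had 1346 and 1152 CPM untreated and 710 and 735 after DSS, a change of -0.85 ± 0.14 (edgeR adjusted p = 0.0131) that was not called without mutant untreated library 1 (0.0760) or mutant DSS library 1 (0.0593) and was lowest, 0.000468, under another alternative. Both untreated libraries of that cluster were above both DSS libraries.

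Naive- or central memory-like T cells, although low in Crip1, showed the same direction. The mutant libraries had 567 and 658 CPM untreated and 306 and 366 after DSS, and the wildtype ones 507 and 541 untreated and 261 and 236 after DSS. The 4 DSS libraries were the 4 lowest. Their mutant change was -0.93 ± 0.21 (log2, SE; edgeR adjusted p = 0.0218), not called without mutant untreated library 2 (0.179) or with scaling by library size alone (0.0794), over a range of alternatives from 0.00404 to 0.179.

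The other 3 subsets did not pass. Proliferating T cells, marked by Birc5 and histone genes, had 1806 and 1454 CPM of Crip1 untreated and 1026 and 1321 after DSS in the mutant, a change of -0.49 ± 0.18 (edgeR adjusted p = 0.230; 0.689% of genes were called lower), which was called without mutant DSS library 2 (-0.72, 0.00369) and reached 0.707 at the other end of the alternatives. Tfh-like cells had 430 and 271 CPM untreated and 251 and 374 after DSS in the mutant, overlapping values with a change of -0.15 ± 0.23 (adjusted p = 0.757; 0.995% of genes called lower). The sign of that change turned without mutant untreated library 1 (0.18) and without mutant DSS library 1 (0.10). In the wildtype the Tfh-like cells had 377 and 661 CPM untreated and 224 and 234 after DSS, with no overlap. The third was a small cluster led by A630095E13Rik and Tgm4, of which 43.4% of 468 cells came from mutant untreated library 1, with a change of -0.17 ± 0.25 (adjusted p = 0.811; 0.272% of genes called lower).

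Outside the T cells, Crip1 was called lower after DSS in 6 of the 14 mutant classes that could be tested and higher in 0, and the fitted change was below 0 in 13, from -1.66 to 0.17 on the log2 scale. The 6 were macrophage-like cells, B cell-like cells, the Retnla cluster, fibroblast-like clusters led by Sfrp2 and by Pcolce2 and Ptx3, and mature dendritic cell-like cells. The share of all genes called lower in these fits was 5.62% in macrophage-like cells, 4.19% in B cell-like cells, 2.61% in the Retnla cluster, 4.72% and 3.11% in the Sfrp2 and Ptx3 fibroblast-like clusters and 1.06% in mature dendritic cell-like cells. On leaving out 1 mutant untreated library the count fell, and on leaving out 1 mutant DSS library it rose. The number of all genes called in mutant CD4 T cells moved the same way, as given at the end. Shares of all genes by class in these fits are not given, so a changed count is no result about Crip1.

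B cell-like cells, with Ighd and Pax5, gave the call that stayed under every alternative run. They had 621 and 755 CPM of Crip1 in the wildtype untreated libraries, 587 and 641 in the mutant untreated, 268 and 271 in the wildtype DSS and 346 and 271 in the mutant DSS libraries. The DSS libraries were all below the untreated ones. Crip1 changed by -1.12 ± 0.15 in the mutant (log2, SE; edgeR adjusted p = 0.00189, at most 0.00352 under the alternatives).

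Among myeloid classes, macrophage-like cells, the Retnla cluster and mature dendritic cell-like cells showed lower Crip1 after DSS in both genotypes. Macrophage-like cells (C1qa, Apoe, Adgre1) had 788 and 1104 CPM in the wildtype untreated libraries, 747 and 849 in the mutant untreated, 300 and 308 in the wildtype DSS and 373 and 370 in the mutant DSS libraries, and the mutant change was -1.30 ± 0.18 (log2, SE; edgeR adjusted p = 0.00719). The Retnla cluster, whose top genes Chil3, Clec4e and Fpr2 are myeloid, had 2346 and 1770 CPM untreated and 744 and 685 after DSS in the mutant, a change of -1.66 ± 0.19 (adjusted p = 0.00375). In mature dendritic cell-like cells the mutant libraries had 3248 and 2951 CPM untreated and 1724 and 1910 after DSS, a change of -0.92 ± 0.17 (adjusted p = 0.0212). In none of these 3 classes did the treated and untreated libraries overlap, in either genotype, which held for 9.88%, 10.3% and 9.60% of all genes in this order. Without mutant untreated library 1 the adjusted p was 0.112, 0.102 and 0.226 in this order, and without mutant untreated library 2 it was 0.123 in macrophage-like and 0.0916 in mature dendritic cell-like cells. The lowest adjusted p among the alternatives was 1.80e-08, 1.69e-14 and 0.000215. Neutrophil-like cells were too few to test, and their treated and untreated libraries overlapped in both genotypes. Their mean Crip1 level was 110.4 CPM untreated and 105.7 after DSS in the mutant, and 721.4 and 183.7 in the wildtype.

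Of 4 fibroblast-like clusters, which make collagen and other matrix, 2 were called for Crip1 in the mutant, and whether the clusters differ was not tested. The cluster led by Sfrp2 and Il11 had 1216 and 757 CPM of Crip1 untreated and 418 and 311 after DSS in the mutant (-1.54 ± 0.25 on the log2 scale, edgeR adjusted p = 0.00349; 0.177 without mutant untreated library 1). The cluster led by Pcolce2 and Ptx3 had 1308 and 1106 CPM untreated and 604 and 456 after DSS (-1.15 ± 0.20, adjusted p = 0.0142; 0.157 without mutant untreated library 1, 0.0610 without mutant untreated library 2 and 0.0692 without mutant DSS library 2). In the cluster led by Cfd the values were 1117 and 911 CPM untreated and 580 and 647 after DSS, which did not overlap, with -0.84 ± 0.26 and an adjusted p of 0.434. In that cluster 0% of genes were called lower by edgeR (960 of 10501 genes had an unadjusted p under 0.05, and DESeq2 called 7 lower and 3 higher). Crip1 was called there without mutant DSS library 1 (0.0163) and without mutant DSS library 2 (0.0138), and the highest alternative was 0.9999. The cluster led by Sox6 and Bmp3 had 584 and 490 CPM untreated and 351 and 471 after DSS (-0.35 ± 0.26, adjusted p = 0.545), again with 0% of genes called lower by edgeR (1525 at an unadjusted p under 0.05, and 19 lower and 60 higher by DESeq2).

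Blood endothelial-like cells were the class with a fitted Crip1 change above 0 in the mutant. They had 1298 and 1337 CPM in the wildtype untreated libraries, 1141 and 999.5 in the mutant untreated, 924 and 996 in the wildtype DSS and 1055 and 1306 in the mutant DSS libraries. The treated and untreated mutant libraries overlapped, and the wildtype ones did not. The mutant change was 0.17 ± 0.20 (log2, SE; edgeR adjusted p = 0.676; 0.282% of genes called lower), it was -0.04 without mutant DSS library 2, and the wildtype difference was -0.47.

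The remaining tested classes did not pass for Crip1 in the mutant. Smooth muscle or pericyte-like cells had 884 and 1459 CPM untreated and 786 and 1624 after DSS, with a change of -0.05 ± 0.38 (edgeR adjusted p = 0.971) whose sign turned with scaling by library size alone (0.05), without mutant untreated library 2 (0.29) and without mutant DSS library 1 (0.38). In that class 0% of genes were called lower by edgeR (17 were called higher, 1205 had an unadjusted p under 0.05, and DESeq2 called 25 lower). Plasma cell-like cells had -0.97 ± 0.29 (adjusted p = 0.156; 0.615% of genes called lower), with 0.000598 without mutant DSS library 2 and 1.66e-06 with no filter on low counts, and ILC3-like cells, innate lymphocytes that make Il22, had -0.51 ± 0.23 (0.366; 0.206%), with 0.0273 without that library. Lymphatic endothelial-like cells had -0.44 ± 0.22 (0.397; 0.209%) and an unnamed cluster led by Esco2 and Ighg1 had -0.04 ± 0.21 (0.955; 0.258%), which turned to 0.16 without mutant DSS library 1. Squamous epithelium-like, glia-like, neutrophil-like and plasmacytoid dendritic cell-like cells and the cluster led by Vip had under 20 cells in at least 1 mutant library and were not tested.

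**Figure D4:**
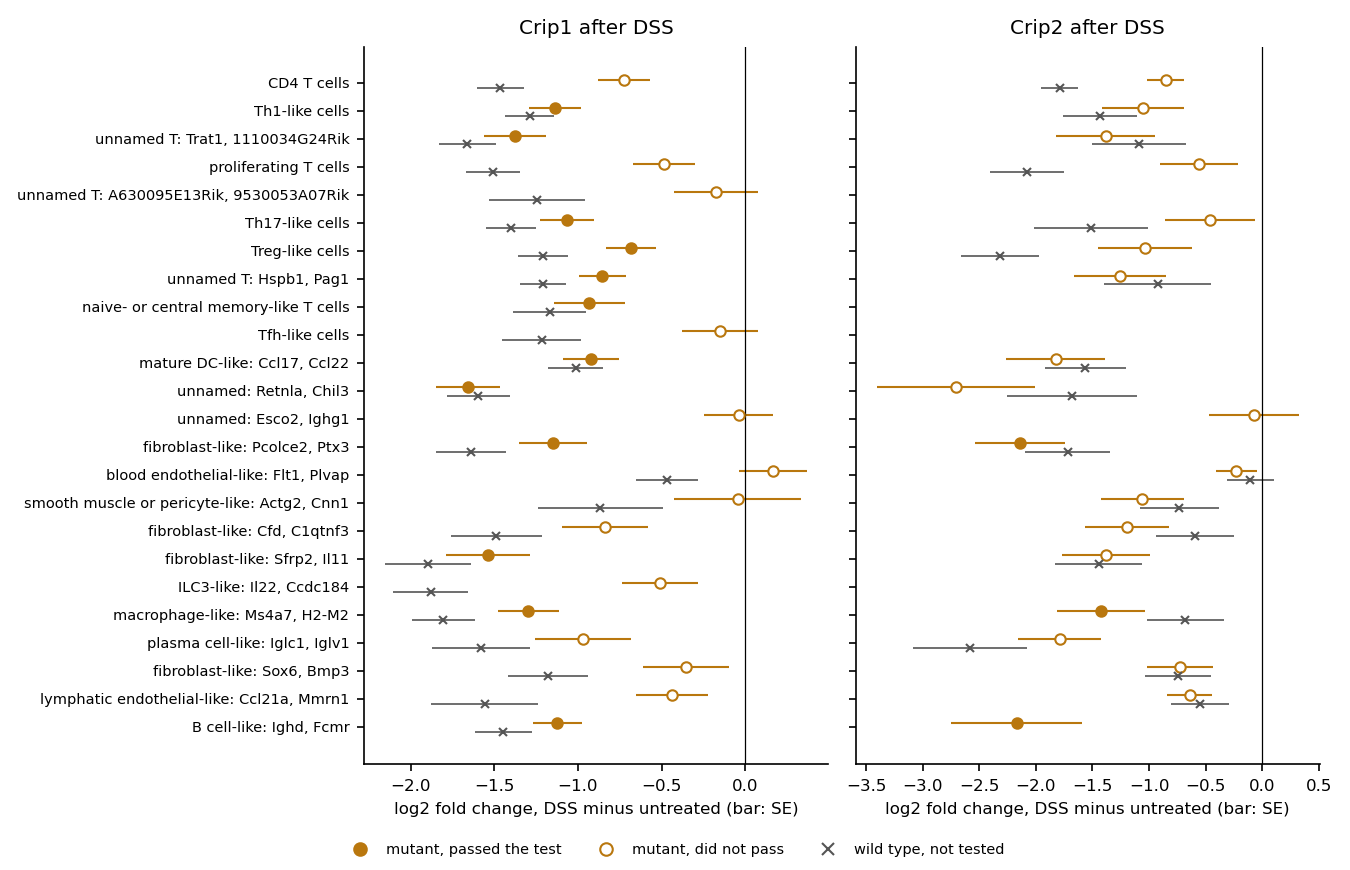
Log2 fold change, DSS minus untreated, of Crip1 (left) and Crip2 (right) by class, with lines showing the SE, for the mutant libraries (circles, filled where the test was passed) and the wildtype libraries (crosses, not tested because their values led to the choice of the members). Crip1 changes in the mutant run from -1.66 in the Retnla cluster to 0.17 in blood endothelial-like cells.

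Crip2 was called lower in 0 of the 6 T cell subsets where it could be tested in the mutant and in 3 of 13 other classes, by edgeR. In those 6 subsets 0.538 to 1.86% of all genes were called lower, and in those 3 classes 3.11 to 5.62%. The fitted change was below 0 in all 6 and all 13. The count in the other classes changed with the setting: DESeq2 called 0 of the 6 for which it gave an adjusted p. Scaling by library size alone gave 1 of 13, no filter on low counts 9 of 14 and all 8 libraries in 1 fit 4 of 12. It also fell or rose on leaving out 1 library, and in T cell subsets it rose in some such fits. The number of all genes called changed as well, in mutant CD4 T cells from 148 to 960 with no filter. Shares of all genes by class and setting are not given, so a changed count is no result about Crip2. The T cell values rest on few UMIs: 48 in untreated and 44 in DSS-treated mutant Th1-like cells, 26 and 28 in Th17-like cells and 23 and 48 in Treg-like cells. Counts in Tfh-like, naive- or central memory-like, ILC3-like and Il1rl1 Treg-like cells and in the A630095E13Rik cluster were too low to test. Some classes that were not tested had a higher Crip2 level after DSS. Squamous epithelium-like cells had 62.1 and 0 CPM in the mutant untreated libraries and 154 and 184 after DSS, and 0 in both wildtype untreated libraries and 85.8 and 257 after DSS. The libraries at 0 held 7, 3 and 1 of these cells, where 3 counts would be 59.1 to 679 CPM. The A630095E13Rik cluster averaged 20.7 CPM untreated and 49.6 after DSS in the mutant, on 15 and 4 UMIs, and the Il1rl1 Treg-like cluster 12.8 and 15.2 CPM. In Th1-like cells Crip2 stood at 37.9 and 42.7 CPM in the wildtype untreated libraries, 32.6 and 41.6 in the mutant untreated, 16.1 and 14.7 in the wildtype DSS and 8.78 and 19.9 in the mutant DSS libraries. Untreated and treated values did not overlap, and the mutant change was -1.05 ± 0.36 (log2, SE; edgeR adjusted p = 0.121).

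Treg-like cells had 27.4 and 37.1 CPM of Crip2 in the wildtype untreated libraries, 18.1 and 17.9 in the mutant untreated, 6.73 and 6.42 in the wildtype DSS and 9.96 and 8.27 in the mutant DSS libraries. The wildtype untreated libraries were the highest and the wildtype DSS libraries the lowest. The mutant change was -1.04 ± 0.42 (log2, SE; edgeR adjusted p = 0.175) beside a wildtype difference of -2.32 ± 0.35. Th17-like cells had 13.1 and 13.2 CPM untreated and 10.8 and 7.56 after DSS in the mutant, a change of -0.46 ± 0.40 (adjusted p = 0.551). In the Trat1 cluster the mutant libraries had 22.1 and 35.2 CPM untreated and 7.64 and 15 after DSS (-1.38 ± 0.43, adjusted p = 0.0976). It was called there without mutant untreated library 1 (0.0463) and without mutant DSS library 2 (0.0405), and the highest alternative was 0.621.

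The 3 classes in which Crip2 was called lower in the mutant were the Pcolce2 and Ptx3 fibroblast-like cluster, B cell-like cells and macrophage-like cells. In these, 3.11%, 4.19% and 5.62% of all genes were called lower. The fibroblast-like cluster had 142 and 204 CPM in the wildtype untreated libraries, 202 and 181.9 in the mutant untreated, 62.4 and 41 in the wildtype DSS and 64.7 and 21 in the mutant DSS libraries, with no overlap by treatment. Its mutant change was -2.14 ± 0.40 (log2, SE; edgeR adjusted p = 0.0164), not called by DESeq2 (0.0855) or without mutant untreated library 1 (0.0766), with 1.05e-17 as the lowest alternative. B cell-like cells gave -2.17 ± 0.58 (edgeR adjusted p = 0.0453) on 48 untreated and 5 DSS UMIs, and macrophage-like cells -1.42 ± 0.39 (0.0441) on 82 and 27 UMIs. Both calls were lost with scaling by library size alone (0.0516 and 0.0507), and DESeq2 gave no adjusted p for them. In the wildtype, B cell-like cells averaged 6.79 ± 1.08 CPM untreated and 5.24 ± 5.03 after DSS, which overlapped. Macrophage-like cells averaged 7.66 ± 0.577 and 5.35 ± 0.766 CPM there, without overlap. The B cell-like call was also lost without mutant DSS library 1 (0.225). The macrophage-like call was lost without any 1 of the 4 libraries (0.246 and 0.252 without the untreated ones, 0.0619 and 0.0716 without the DSS ones). The lowest alternatives for these classes were 0.0107 and 0.00555. Changes of like or larger size missed the threshold in the Retnla cluster (-2.71 ± 0.70, edgeR adjusted p = 0.0583), mature dendritic cell-like cells (-1.82 ± 0.44, 0.0579) and plasma cell-like cells (-1.79 ± 0.37, 0.0689). These 3 passed with no filter on low counts (0.00165, 0.00144 and 0.000492), and the first 2 with all 8 libraries in 1 fit (0.0337 and 0.0272). The mature dendritic cell-like value also passed without mutant untreated library 2 (0.00731).

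Endothelial cells, a known site of Crip2, did not pass the test. Blood endothelial-like cells, whose 8 values are given above, had a mutant change of -0.23 ± 0.18 (log2, SE; edgeR adjusted p = 0.504) and a wildtype difference of -0.10, which was 0.14 without wildtype untreated library 2. Lymphatic endothelial-like cells had 522 and 575 CPM untreated and 346 and 373 after DSS in the mutant (-0.64 ± 0.20, edgeR adjusted p = 0.191), values that did not overlap. In the wildtype they averaged 511 ± 208 and 361 ± 13.6 CPM, which overlapped. The other fibroblast-like clusters had -1.38 ± 0.39 (led by Sfrp2, adjusted p = 0.0578), -1.19 ± 0.37 (led by Cfd, 0.437) and -0.73 ± 0.29 (led by Sox6, 0.311). The Sfrp2 cluster had 75.1 and 78.3 CPM of Crip2 untreated and 48.2 and 18.1 after DSS in the mutant, and the DSS libraries lay far apart. It was called with no filter on low counts (edgeR adjusted p = 0.000224) and, in fits that leave that spread out, without mutant DSS library 1 (-2.11, edgeR adjusted p = 5.05e-10) and without mutant DSS library 2 (-0.82, 0.0384). The Cfd cluster, with 166 and 151 CPM untreated and 97.6 and 33.1 after DSS, was called with no filter (0.00556), without library 1 (-2.42, 0.00150) and without library 2 (-0.84, 0.0399), and the Sox6 cluster without library 1 (-1.17, 0.00269). Lymphatic endothelial-like cells were called without mutant DSS library 2 (-0.68, 0.0401). Whether the classes differ in their change was not tested.

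Mutant against wildtype, the second question of the design, gave no call for either member when all 8 libraries were fitted together. These contrasts, here and in the subsets below, use the wildtype libraries whose DSS difference led to the choice. The direction of their values is therefore not independent evidence about the mutation. In CD4 T cells of untreated mice Crip1 was at -0.48 ± 0.14 (log2, SE, mutant minus wildtype; edgeR adjusted p = 0.687) and Crip2 at -0.43 ± 0.15 (0.824). Both mutant untreated libraries were below both wildtype ones for each member, as they were for 18.6% of 11055 genes. The heat-shock sum differed in this contrast too (11114 and 10459.5 CPM in the mutant, 2914 and 5197 in the wildtype). Without the Svs5 and Hspa1a cluster the values were -0.48 (edgeR adjusted p = 0.785) and -0.44 (0.920), and the part of these genes in the other cells was not tested. After DSS Crip1 was at 0.25 ± 0.14 and Crip2 at 0.50 ± 0.16, each with an edgeR adjusted p of 0.9998. Both mutant libraries were then above both wildtype ones, as for 13.3% of genes. In this fit 0% of 11055 genes were called for the untreated comparison, where 581 genes had an unadjusted p below 0.05 and DESeq2 called 15, and 0% after DSS, where the numbers were 188 and 0. Crip1 in untreated mice was called only with no filter on low counts (-0.50, edgeR adjusted p = 0.0281, beside up to 1 under the others).

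Within subsets the genotype values were of either sign. In untreated mice Th17-like cells had -0.41 ± 0.15 for Crip1 (edgeR adjusted p = 0.597) and -0.60 ± 0.45 for Crip2 (0.863). Treg-like cells had -0.30 ± 0.15 and -0.87 ± 0.37, and Th1-like cells -0.05 ± 0.14 and -0.16 ± 0.29. After DSS Crip1 was at -0.07 ± 0.15 in Th17-like, 0.22 ± 0.14 in Treg-like and 0.10 ± 0.15 in Th1-like cells. None of these passed the threshold, in fits that called few genes or none: edgeR called 0% of 8011 genes in Treg-like, 0.134% of 6739 in Th17-like and 0% of 7269 in Th1-like cells of untreated mice, and 0% in each after DSS. Before adjustment, p was below 0.05 for 366, 453 and 297 genes in untreated mice and for 161, 136 and 223 after DSS. The wildtype DSS difference was larger in size than the mutant one in CD4 T cells for both members (-1.46 beside -0.73 for Crip1, -1.79 beside -0.85 for Crip2), and that difference was not tested because it contains the wildtype contrast that led to their choice.

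The lower Crip1 level after DSS lay both in the share of cells with a UMI and in the UMIs per such cell. After each cell was thinned to 1000 UMIs, Crip1 was seen in 63.7 and 65.4% of CD4 T cells in the wildtype untreated libraries, 57.2 and 48.5% in the mutant untreated, 37.3 and 40.7% in the wildtype DSS and 43.1 and 43.8% in the mutant DSS libraries. The untreated and treated shares did not overlap. Cells with a UMI held 3.03 and 2.70 UMIs of it on average in the untreated wildtype and mutant groups and 1.85 and 1.89 in the treated ones. Without thinning the group means were 78.6, 71.1, 59.5 and 64.1% in the order above. Thinning left out 178, 53, 211 and 155 shallower cells of these groups, and the median UMIs per cell ranged from 1942.5 to 2884 over libraries. These shares were not tested.

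Free RNA in the droplets can give UMIs to cells that do not make a transcript. Neutrophil-like cells (median 1093 to 3978 UMIs per library) had a thinned Crip1 share of 38.1, 14.3, 10.6 and 7.59% in the 4 groups on 20, 25, 51 and 93 cells, and plasma cell-like cells (median 6739 to 11846) had 32.0, 28.8, 12.8 and 16.6%. The CD4 T cell share was above both in each group, and Th1-like cells were higher still, at 74.3, 75.1, 52.4 and 54.4%. Over all barcodes of a library Crip1 averaged 1281 CPM untreated and 659 after DSS, beside 1649 and 805 in CD4 T cells. For Crip2 the values were 78.2 and 32.6 CPM over all barcodes, beside 22.8 and 9.57 in CD4 T cells. The part of free RNA in the CD4 T cell values was not tested. Crip2 was seen in 2.69 ± 0.547, 1.71 ± 0.0628, 0.797 ± 0.104 and 1.08 ± 0.00597% of thinned CD4 T cells (SD, n = 2 each) and in 6.89, 5.63, 2.16 and 3.24% without thinning. Its plasma cell-like share without thinning was 4.28, 6.88, 0.947 and 1.87%, in deeper cells. By summed level, which does not depend on depth per cell, Crip2 averaged 26.2, 19.4, 7.88 and 11.3 CPM in CD4 T cells and 6.63, 8.76, 1.17 and 2.45 CPM in plasma cell-like cells.

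Changes in the makeup of the CD4 T cells were set beside the change within subsets. Treg-like cells made up 14.5 ± 0.129% of CD4 T cells in untreated and 26.5 ± 1.03% in DSS-treated wildtype mice (SD, n = 2), and 11.8 ± 1.82% and 24.2 ± 4.50% in the mutant. Th1-like cells made up 24.3 ± 7.88, 13.5 ± 8.55, 12.9 ± 5.92 and 11.9 ± 7.74% in the wildtype untreated, mutant untreated, wildtype DSS and mutant DSS groups. Tfh-like cells, low in Crip1, were at 12.7 ± 2.32, 20.5 ± 4.16, 13.1 ± 0.446 and 10.1 ± 0.371% in the same order, and in the mutant their untreated shares (17.5 and 23.4%) lay above those after DSS (10.3 and 9.79%). With every library given the same subset shares, the log2 ratio of the mean levels of Crip1, DSS over untreated, was -1.32 in the wildtype (-1.40 as observed) and -0.81 in the mutant (-0.65 as observed). For Crip2 it was -1.53 (-1.73 as observed) and -0.82 (-0.78 as observed). At fixed subset shares the difference was larger in size than observed in the mutant and smaller in the wildtype.

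The neighbours of the members on chromosome 12 had fitted changes above 0. Of 8 annotated genes within 100000 bases of them, 3 were tested in mutant CD4 T cells, namely Pacs2, Mta1 (a chromatin remodelling subunit) and Tedc1. Their DSS changes were 0.62, 0.47 and 0.50 on the log2 scale, and 0 of the 3 passed the edgeR test, with a lowest adjusted p of 0.199.

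A set of 53 other genes, made of LIM family members such as Zyx and Pxn of adhesion sites and the LIM-binding adaptors Ldb1 and Ldb2, gave 1 call in 4 T cell populations of the mutant, and that was an adaptor. In mutant CD4 T cells 32 were tested, 0 were called by edgeR, and 12 had a change below 0, against 0.722% called lower and 48.9% below 0 over all genes. Their median was 0.13 on the log2 scale against 0.01 over all genes tested. The median was 0.29 in Treg-like, 0.06 in Th17-like and -0.02 in Th1-like cells. The call was Ldb1, which binds the LIM domains of nuclear LIM proteins and rose in mutant Treg-like cells from 34.3 ± 7.13 to 77.3 ± 22.0 CPM (1.19 ± 0.27, edgeR adjusted p = 0.0302). It was 1 of 21 tested there, where 1.19% of all genes were called higher. The 4 most abundant members of the set in CD4 T cells were the actin-binding Ablim1, the focal adhesion protein Tes, Limd2 and the paxillin relative Lpxn. Their mutant changes were -0.11, -0.20, 0.16 and -0.07 (adjusted p = 0.620, 0.335, 0.476 and 0.750).

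A second set held 35 genes of tissue adaptation and migration, among them S100 proteins, annexins, galectins, actins and thymosins. It also held general cytoskeletal genes such as Pfn1, Cfl1 and Rhoa. Klf2 and S1pr1, in the set too, are on the marker list of naive or central memory T cells. More of the set were called lower than higher in Th1-like, Th17-like and Treg-like cells of the mutant. In mutant Th1-like cells 13 of 34 tested were called lower and 0 higher, with 32 below 0 and a median of -0.55 on the log2 scale. Over all genes of that fit 1.79% were called lower, 49.5% were below 0 and the median was 0.01. In mutant Th17-like cells 12 of 34 were called lower and 0 higher, with 30 below 0 and a median of -0.47, against 1.86% called lower, 49.3% below 0 and a median of 0.01 over all genes. In Treg-like cells 5 were called lower and 1 higher of 34, with 22 below 0 and a median of -0.23, against 1.71% called lower and 48.9% below 0 over all genes. In all CD4 T cells 0 of 35 were called by edgeR, with 26 below 0 and a median of -0.23, against 0.722% called lower and 48.9% below 0 over all genes. Both sets were chosen with earlier results of these libraries known, so their direction is not independent evidence. In CD4 T cells all 35 genes of the second set passed the low-count filter. The shares called over all genes were not matched for level, so they are no like-for-like background for a set of abundant genes.

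Named members of that set were as follows in the mutant, the first 4 being its most abundant and the others picked after their values were seen. In CD4 T cells the actin-sequestering Tmsb4x was at -0.36 (edgeR adjusted p = 0.298), its relative Tmsb10 at -0.61 (0.0597), and the actins Actb and Actg1 at -0.26 (0.279) and 0.02 (0.957). Lgals1, a galectin, fell in Th1-like cells from 1310 ± 0.185 to 566 ± 60.3 CPM (-1.28, adjusted p = 0.000786) and in Th17-like cells from 1319 ± 145 to 568 ± 237 (-1.24, 0.00622). Lmna, the nuclear lamin, fell in Th17-like cells from 183 ± 47.2 to 46.0 ± 13.4 CPM (-1.91, adjusted p = 0.000423), in Th1-like (-1.40, 0.0107) and in Treg-like cells (-0.84, 0.0199). Actb fell in Th17-like cells (-0.92, adjusted p = 0.00545) and in Th1-like cells (-0.71, 0.0285). In Treg-like cells Anxa2 (-1.15, 0.00291), S100a11 (-0.82, 0.00594), Lgals3 (-1.06, 0.0327) and S100a10 (-0.59, 0.0316) fell, and the myosin Myo1f rose (1.24, 0.0498). For the genotype comparisons, where edgeR called 0 to 0.134% of all genes, 0 genes of either set were called in these populations, a count that says nothing about the sets.

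**Figure D5:**
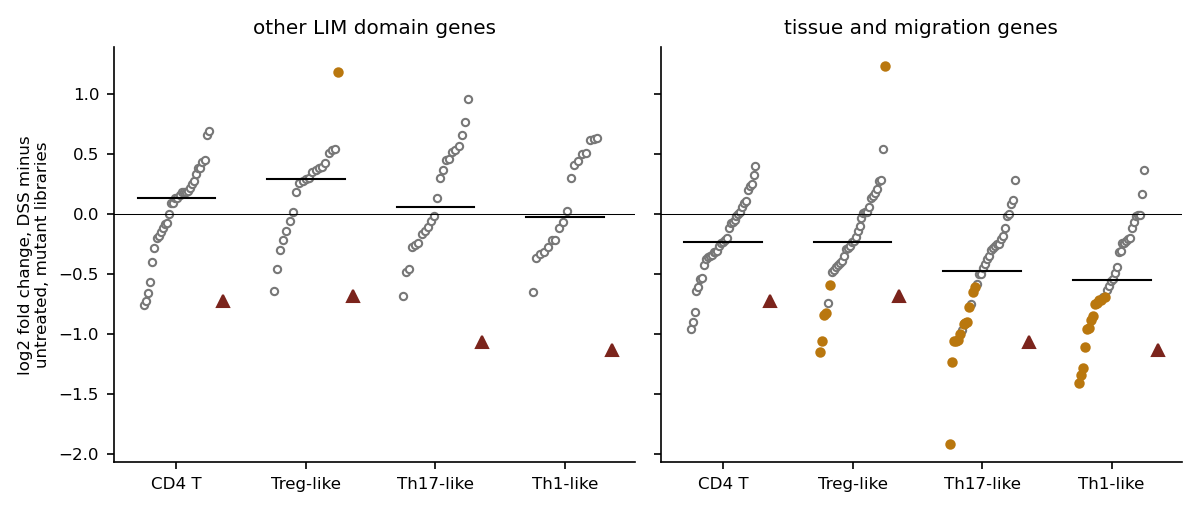
Log2 fold change, DSS minus untreated, in the mutant libraries for the genes of the LIM set (left) and the tissue and migration set (right) in 4 T cell populations, with 1 circle per gene, filled where the edgeR test was passed, a line at the set's median and a triangle for Crip1. The tissue and migration set has its lowest medians in Th1-like (-0.55) and Th17-like cells (-0.47), and the medians of the LIM set run from -0.02 in Th1-like to 0.29 in Treg-like cells.

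Across the 28 classes, each averaged over the 8 libraries, the gene whose level followed Crip1 most closely among 6022 genes was S100a4, a calcium-binding protein of motile cells (Pearson r = 0.74 on log2 CPM), followed by Mex3c (0.73), Alyref (0.73), Uap1 (0.71) and Slc1a5 (0.71). The lowest correlations with Crip1 were those of Retnlg, Ngp and S100a9 (each -0.46) and of Stfa2l1 and Txnip (each -0.45). All but Txnip are top genes of the neutrophil-like cluster, a class of 189 cells. That class had the lowest mean Crip1 of the 28, with a wide spread (280 ± 383 CPM, SD, n = 8). Crip2 was followed most closely by Clstn1 (0.94), Trove2 (0.92), Mprip (0.90), Gna11 (0.90) and Rras (0.90), and lay opposite to Snx20 (-0.82), Ezr (-0.79), Dapp1 (-0.79), N4bp2l1 (-0.78) and Arhgap9 (-0.78). The members themselves had r = 0.17 across the classes. All classes came from the same 8 libraries, and these values are descriptions over 28 points.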

How the data were processed

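The authors deposited 1 table of raw UMI counts per library and a list of cells they kept; Cell Ranger 3.1.0, Seurat 4.0.1 and mm10 are named in the submitters' processing notes, and how barcodes were chosen is not given in the sources used here. Row names came from a deposited symbol list, which matched the reference for 98.5% of 30934 identifiers and for both members. Samples were grouped by title. Cells on the authors' list were clustered for T cell subsets (scanpy 1.11.5, 30 components, resolution 1). For other classes all barcodes with at least 400 genes and under 20% mitochondrial UMIs were clustered in the same way. Of 2000 variable genes, 1805 and 1762 were used in this order. Among those left out were Crip1, Crip2 and effector genes such as Il17a, Ifng and Gzmb. Immunoglobulin, T cell receptor V, haemoglobin, mitochondrial and sex-linked genes were left out too. Clusters were named from marker lists, with thresholds set after the clusters were seen, doublets were not called, and the substitution cannot be seen in gene counts.

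Counts were summed per library and class, and tested with edgeR 4.0.16 (TMM, low-count filter, quasi-likelihood, Benjamini-Hochberg, threshold 0.05) where each of the 4 mutant libraries had at least 20 cells; genotype was tested with all 8 libraries together. The fits were tested on simulated data, and DESeq2 1.42.0 was an alternative. Intervals on levels and shares are SDs over libraries. The SE of a fold change is its size divided by the square root of the edgeR F statistic, whose spread is drawn partly from all genes. The members and gene sets were chosen with earlier results of these data known. Named were both members, and per set the 4 genes with the largest called change or, where none was called, the highest level; others are said to be picked later.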

Additional observations from a re-analysis of the deposited data

How the results depend on the processing

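With 2 libraries per group many calls changed on leaving out 1 library, and Crip1 in Th17-like cells, the Trat1 cluster and B cell-like cells kept its call. Beside the main fits, in mutant CD4 T cells Crip1 passed the threshold with DESeq2 (-0.73, adjusted p = 0.00103) and Crip2 did not (-0.86, 0.0765), and both passed with no filter on low counts (-0.69 for Crip1, 0.00680, and -0.82 for Crip2, 0.0192) and with all 8 libraries in 1 edgeR fit (-0.73, 0.0292, and -0.85, 0.0285). Leaving out each library gave -0.88 to -0.55 for Crip1 and -0.96 to -0.76 for Crip2. For Crip1 in mutant Treg-like cells the range was -0.84 to -0.52, and all barcodes with a Cd4 UMI gave -0.72. Crip1 in untreated mutant against wildtype CD4 T cells was -0.50 with no filter. The number of genes called for DSS in mutant CD4 T cells was 148, and 373 with DESeq2, 960 with no filter, 563 with all 8 libraries, 242 without cells with a UMI of another type's marker, and 0 to 1671 on leaving out each library (0 and 24 without mutant untreated library 1 or 2, 1671 and 659 without mutant DSS library 1 or 2). For the mutation it was 0 in untreated mice, 15 with DESeq2, 145 with no filter and 0 to 11 on leaving out a library (11 without mutant untreated library 2), and 0 after DSS, 33 with no filter and 0 to 4 (4 without wildtype DSS library 1). The causes were not tested. Signs turned in classes near 0: Crip1 ranged on leaving out a library from -0.52 to 0.18 in Tfh-like, -0.036 to 0.38 in blood endothelial-like, -0.67 to 0.38 in smooth muscle or pericyte-like (0.048 with library size alone) and -0.27 to 0.16 in the Esco2 cluster, Crip2 from -0.38 to 0.18 in the Esco2 cluster, and the wildtype Crip2 difference in blood endothelial-like cells from -0.32 to 0.14. Over the classes and T cell subsets beside these, 25 of 326 alternatives lost a call, 25 gained one and 9 turned sign. The other 267 kept direction with no change of call seen. Fits that gave no adjusted p are counted among the 267 where the sign agreed, so not all of them kept a call. DESeq2 gave Crip2 an adjusted p in 0 T cell subsets and 6 other classes. Leaving out the T cell cluster with Svs5 and Hspa1a, and shares without thinning, were chosen after seeing the data. The planned fit without heat-shock clusters was not run, because no cluster had 3 heat-shock genes among its leading genes. The titles give animal numbers and no replicate numbers shared between groups, and whether neighbouring numbers mark a litter or batch is not stated. Deviations of neighbouring animals from their group means correlated at 0.14 (untreated) and 0.07 (DSS) over genes. With neighbouring numbers as a replicate block, chosen after seeing the data, Crip1 and Crip2 were at -0.49 (adjusted p = 0.207) and -0.43 (0.492) in untreated mice and 0.25 and 0.50 (both 0.9996) after DSS, and 24 and 0 genes were called. Depth limits Crip2 in T cells: the 6 tested subsets held 17 to 74 of its UMIs per mutant group.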
